A study of Rattus norvegicus with 6 samples.

Results

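The 10 genes of the circadian clock described here were followed in the left atrium of paced rats: the activators Clock and Npas2, the repressors Per1, Per2, Per3, Cry1 and Cry2, the nuclear receptors Nr1d1 and Nr1d2, and the output factor Dbp. They were chosen by symbol, as the probe sets whose only gene symbol in the array annotation is one of these names. All 10 of 10 had such a probe set, 1 for each gene, and all 10 were among the 11237 genes that reached a log2 signal of more than 5 on any array. The arrays came from 6 adult male Sprague-Dawley rats of 250 to 320 g, of which 3 underwent rapid atrial pacing (RAP) at a cycle length of 70 ms and 3 control pacing at 140 ms for 48 hours, with 1 whole-transcript array for each left atrium. All 6 rats carried an electrode on the right atrium, drank atenolol, a beta-1 adrenergic blocker, and received heparin before they were sacrificed. The labels number 3 pairs of a RAP and a control rat, and by the study's methods the 2 rats of a number went through the experiment side by side. All animals were housed under a regular light and dark cycle. Further pairs were paced, but only these 3 gave RNA of high quality. The hour at which a pair was sacrificed is not given in the sources used here. Whole tissue was measured, in which fewer cells of a type and less RNA per cell cannot be told apart.

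The circadian clock is a loop of transcription that runs in almost every cell, including cardiomyocytes. CLOCK, or its close relative NPAS2, pairs with BMAL1 on DNA and switches on the Per and Cry genes, whose proteins return to the nucleus and block the activators. In a second loop the receptors REV-ERB alpha and beta, which Nr1d1 and Nr1d2 encode, silence Bmal1 and Npas2, which then run out of phase with the genes that the E-box drives. DBP carries the rhythm to output genes. In the rodent heart the transcripts of Dbp, Nr1d1 and Per3 are known for wide swings over the day.

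The atria had the markers of their tissue. Of 6 atrial markers 5 had a probe set, and 4 of these reached a log2 signal of more than 5 on any array. The mean log2 signal of these 4 was 13.02 to 13.35 over the arrays. One of them, Pam, an enzyme that amidates peptides, rose with RAP (0.43, SE 0.15, limma's adjusted p = 0.76), from 12.34, 12.19 and 12.45 in controls 1, 2 and 3 to 12.80, 12.82 and 12.65 in RAP 1, 2 and 3. Control 3 and control 2 stood apart in markers of other cells. Control 3 was highest in ventricular and erythroid markers, with the ventricular light chain Myl2 at 8.60 against 4.28 to 4.89 on the other arrays. Control 2 had the highest macrophage markers. The means of these lists are given with the likeness of the arrays, and without any 1 array, or any 1 pair, 0 of the 10 clock genes passed the thresholds with RAP. In the correlations that follow, the arrays of pairs 2 and 3 were less like their labelled partners than like arrays of the other pair. Deviations cancel out within a group, so these correlations depend on one another. Whether the pair numbers, the cells in the tissue or something else lie behind them was not tested. The study itself reports that the arrays of a pair were alike in a principal component analysis, which it does not show. Over all genes the deviations from the group means correlated at 0.22 in pair 1 but at -0.29 and -0.33 in pairs 2 and 3, against 0.42 between control 3 and RAP 2 and 0.34 between control 2 and RAP 3. The labels were kept, and every standard error, interval, difference within a pair and share of the pair given here depends on them. In the fit that does not use the pairs, 0 of the 10 clock genes passed with RAP as well.

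The letters that the clock's proteins read stand in some of these genes' own promoters. Windows from 250 bases before to 50 bases after a transcription start were taken from RefSeq on build GRCr8, which has them for 9 of the 10 genes (11 windows). On both strands they were searched for CACGTG, the E-box of CLOCK and BMAL1, for its variant CACGTT, for TTANGTAA, the core of the D-box of DBP, and for AGGTCA, the core that the REV-ERB and ROR receptors read. The variant was added after the windows had been seen. Among all 33469 windows of the same length, 6.42% hold the E-box, 4.83% the variant, 2.24% the D-box core and 16.2% the receptor core. Of the 11 windows of clock genes 6 hold none. Per2 has a D-box core 192 bases and an E-box variant 62 bases before its start. One of the windows of Nr1d1 has an E-box 191 bases before its start, and the other a variant at 174 bases. Cry2 has a variant at 212 bases and Nr1d2 a receptor core at 187 bases. Bmal1 (no member of the 10, shown as the partner of Clock and Npas2) has a receptor core 15 bases before its start. The windows printed are those of Per2, which holds the only D-box core, and of Nr1d1 and Bmal1, whose levels ran against each other in the results that follow. They are Per2 (chr9:99496944-99497243, minus strand), Nr1d1 (chr10:84229405-84229704, minus strand) and Bmal1 (chr1:176766078-176766377, plus strand), each 5′ to 3′, with the letters found in capitals. A match is a description of the window and not a site shown to be bound.
Per2: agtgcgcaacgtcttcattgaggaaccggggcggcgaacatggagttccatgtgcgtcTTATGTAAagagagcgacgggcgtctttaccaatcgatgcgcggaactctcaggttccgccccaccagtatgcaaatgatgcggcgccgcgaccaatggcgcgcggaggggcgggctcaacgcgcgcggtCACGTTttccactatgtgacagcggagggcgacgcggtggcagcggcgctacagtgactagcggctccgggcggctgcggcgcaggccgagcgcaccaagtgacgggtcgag
Nr1d1: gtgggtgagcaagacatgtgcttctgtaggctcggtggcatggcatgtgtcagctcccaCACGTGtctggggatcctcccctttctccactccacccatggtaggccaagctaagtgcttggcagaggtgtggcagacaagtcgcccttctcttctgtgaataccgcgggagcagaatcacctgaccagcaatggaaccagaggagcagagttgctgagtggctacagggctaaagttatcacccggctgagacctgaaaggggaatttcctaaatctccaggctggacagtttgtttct
Bmal1: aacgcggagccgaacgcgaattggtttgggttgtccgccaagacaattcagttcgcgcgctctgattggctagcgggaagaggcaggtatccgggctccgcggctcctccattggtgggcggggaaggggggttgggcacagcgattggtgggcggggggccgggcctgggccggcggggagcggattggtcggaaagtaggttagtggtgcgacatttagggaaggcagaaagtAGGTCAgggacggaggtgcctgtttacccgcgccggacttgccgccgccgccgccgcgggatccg

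Of the 10 clock genes, 0 rose and 0 fell with RAP, and the arrays of the RAP and control groups overlapped in all 10. Rose and fell are used of genes past both thresholds of the study's methods (unadjusted p under 0.05, fold change above 1.3) by limma with the pair as a block. Over all 11237 genes 6.39% passed (330 higher and 388 lower), and in 15.4% the groups did not overlap. The smallest unadjusted p among the 10 was 0.17, for Clock, and the adjusted p over all 19907 probe sets ranged from 0.78 for Clock to 0.98 for Dbp. The median of the 10 changes was 0.04 on the log2 scale, and that of all genes -0.0074. By size without sign the median was 0.09 over the clock genes and 0.16 over all genes. Adjusted over all probe sets, 0 had a p under 0.05 with RAP, and 1275 had an unadjusted p under 0.05. With arrays weighted by their spread, 2738 probe sets had an adjusted p under 0.05, and 0 of the 10 clock genes passed the thresholds. That fit rested mostly on pair 1, whose 2 arrays had a weight of 4.91 each, against 0.62 in pair 2 and 0.33 in pair 3. Exact permutation cannot go below a two-sided p of 0.25 when groups are exchanged within the 3 pairs, or of 0.1 when the pairs are not used.

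**Figure D1:**
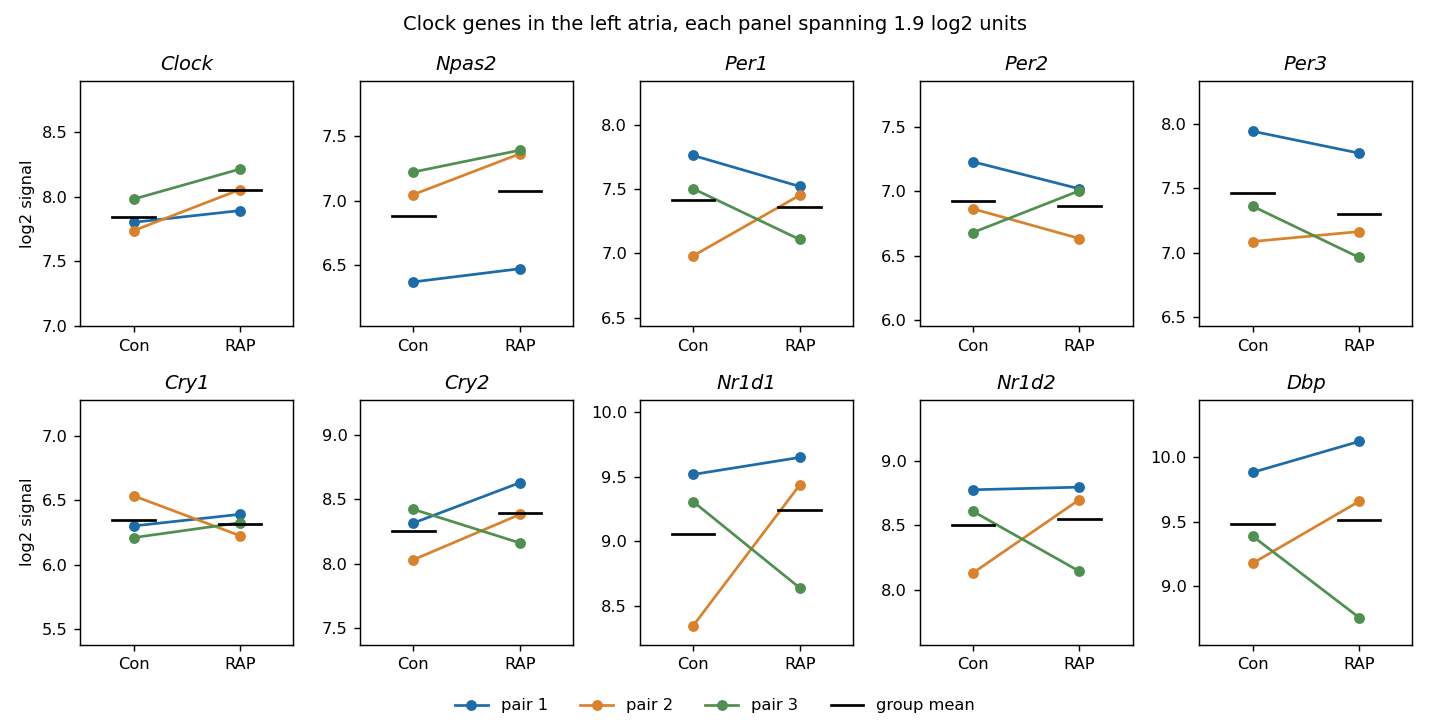
Log2 signal of the 10 clock genes with control pacing (Con) and RAP, 1 panel per gene, in which a line connects the RAP and control array of each pair and black bars mark group means. The arrays of pair 1 are the highest of both groups in 6 genes (Per1, Per2, Per3, Nr1d1, Nr1d2 and Dbp) and the lowest in Npas2, and the lines of pairs 2 and 3 cross in all genes but Clock and Npas2.

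Among the activators, both Clock and Npas2 were higher with RAP in each of the 3 pairs, by amounts that did not pass the test. Clock, the histone acetyltransferase and DNA-binding partner of BMAL1, had log2 signals of 7.80, 7.74 and 7.98 in controls 1, 2 and 3 and of 7.89, 8.06 and 8.22 in RAP 1, 2 and 3. The lowest RAP array of Clock lay below the highest control array. Its change was 0.21 (SE 0.13, 95% interval -0.13 to 0.56), made of 0.09, 0.32 and 0.23 in pairs 1, 2 and 3. Npas2, which can stand in for Clock, had signals of 6.37, 7.05 and 7.22 in the controls and 6.47, 7.37 and 7.39 in the RAP arrays. Both arrays of pair 1 were below all of the other 4. The change of Npas2 with RAP was 0.20 (SE 0.13, interval -0.15 to 0.54), with 0.10, 0.32 and 0.17 in the pairs. Of the 10 genes these were the only 2 with a difference of the same sign in every pair. With no effect a gene has the same sign in 3 pairs with a probability of 0.25, and the share over all genes was not counted.

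The Period genes encode repressors that form the negative arm of the loop, and 0 of the 3 passed the thresholds with RAP. Per1, which also answers within minutes to hormones and other acute signals, had signals of 7.76, 6.98 and 7.50 in controls 1, 2 and 3 and 7.52, 7.45 and 7.11 in RAP 1, 2 and 3. Control 2 was lowest and RAP 3 next, and the change was -0.05 (SE 0.21) with -0.24, 0.47 and -0.39 in the pairs. Per3 had 7.94, 7.09 and 7.36 in the controls and 7.77, 7.17 and 6.97 in the RAP arrays. The arrays of pair 1 were the highest in their group, and the change was -0.16 (SE 0.15). Per2 had 7.23, 6.86 and 6.68 in the controls and 7.02, 6.63 and 7.00 in the RAP arrays, so that RAP 3 was close to RAP 1, and control 3 and RAP 2 were lowest. Its change was -0.04 (SE 0.17).

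The cryptochromes bind the PER proteins and silence CLOCK and BMAL1 most directly, and neither passed the thresholds with RAP. Cry1 had the narrowest range of the 10 genes, from 6.21 in control 3 to 6.53 in control 2, a 1.25-fold span over the 6 arrays. The other signals of Cry1 were 6.30 in control 1 and 6.39, 6.22 and 6.32 in RAP 1, 2 and 3, and its change was -0.03 (SE 0.15). Cry2 had 8.31, 8.03 and 8.42 in the controls and 8.63, 8.38 and 8.16 in the RAP arrays. RAP 1 was highest and control 2 lowest in Cry2, a 1.51-fold span, with a change of 0.13 (SE 0.18).

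In Nr1d1, Nr1d2 and Dbp the difference between RAP and control was positive in pair 2 and negative in pair 3, as it also was in Per1, Per3 and Cry2. Nr1d1, the heme-binding repressor REV-ERB alpha, had signals of 9.52, 8.34 and 9.31 in controls 1, 2 and 3 and 9.65, 9.44 and 8.64 in RAP 1, 2 and 3. Control 2 and RAP 3 stood below the other 4 arrays, and the full span was 2.47-fold. Its change was 0.18 (SE 0.35), with 0.13, 1.09 and -0.67 in pairs 1, 2 and 3. Nr1d2, its paralog REV-ERB beta, had 8.77, 8.13 and 8.61 in the controls and 8.79, 8.70 and 8.14 in the RAP arrays, again with control 2 and RAP 3 at the bottom and a span of 1.59-fold. Its change was 0.04 (SE 0.23), with 0.02, 0.57 and -0.47 in the pairs. Dbp, an activator of D-box genes, had 9.88, 9.18 and 9.39 in the controls and 10.12, 9.66 and 8.76 in the RAP arrays. Its span of 2.58-fold was the widest of the 10 genes, with RAP 1 and control 1 highest and RAP 3 lowest. The change of Dbp was 0.03 (SE 0.25), the smallest of the 10 in size, with 0.24, 0.48 and -0.63 in the pairs.

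The 95% intervals show how large a change with RAP these arrays leave possible under limma's fit. For Cry1 the 95% interval of the change reached no further than 1.35-fold in either direction, and for Per2 1.40-fold. For Clock, Npas2, Per1, Per3, Cry2, Nr1d2 and Dbp the bound lay between 1.45-fold and 1.61-fold. For Nr1d1 it was 2.15-fold, and in all 10 genes the interval included a change as large as the 1.3-fold threshold in at least 1 direction. By the methods' t-test, which estimates each gene's spread from its own 3 pairs, the bound was 5.19-fold for Nr1d1, 2.80-fold for Dbp, 2.51-fold for Nr1d2 and 2.30-fold for Per1, and between 1.38-fold and 1.98-fold for the other 6 genes.

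**Figure D2:**
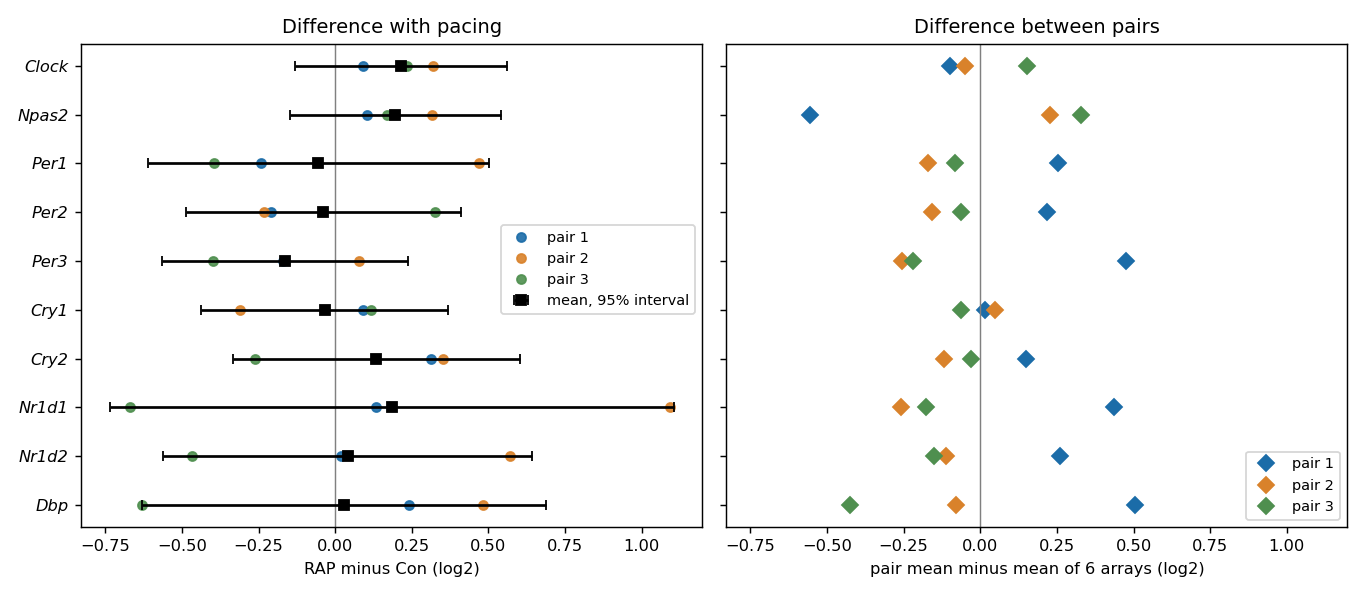
Left, RAP minus control of each clock gene on the log2 scale (squares, with the 95% interval of limma's fit) and the same difference within pairs 1, 2 and 3 (dots). Right, on the same scale, the mean of the 2 arrays of each pair minus the mean of the 6 arrays. All 10 intervals on the left include 0, and on the right the diamond of pair 1 is the highest in 7 genes and the lowest in Clock and Npas2.

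Before adjustment 2 clock genes differed between pairs, both through pair 1, in which Npas2 was low and Per3 high. The same fit gives a moderated F test of the pair, which was called at an unadjusted p under 0.05 and a fold above 1.3 between the highest and the lowest pair mean. Npas2 and Per3 passed, 2 of the 10 clock genes, beside 2.06% of all genes. The pair means of Npas2 were 6.42, 7.21 and 7.31 in pairs 1, 2 and 3, a 1.85-fold range (unadjusted p = 0.0060). Those of Per3 were 7.86, 7.13 and 7.16, a 1.66-fold range (unadjusted p = 0.021). Neither held after adjustment over all probe sets (adjusted p = 1.00 for each), where 0 probe sets passed and 499 had an unadjusted p under 0.05. Dbp had the widest range of pair means of the 10 genes, 1.91-fold, highest in pair 1 and lowest in pair 3, and did not pass (unadjusted p = 0.076). Both calls rested on pair 1, without which the ranges were 0.10 for Npas2 and 0.04 for Per3 on the log2 scale and 0 of the 10 genes passed. Without pair 2 or without pair 3, Dbp passed beside Npas2 and Per3 (unadjusted p = 0.018 each). By the ordinary F test of the same layout Per3 did not pass (unadjusted p = 0.077).

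Split by pair and by pacing, the variance of the clock genes lay with the pair more than with RAP. The pair took between 18.2% of the variance over the 6 arrays for Cry1 and 93.1% for Npas2, with a median of 47.1%, against a median of 27.6% over all genes. Pacing took a median of 3.09% over the clock genes and 18.8% over all genes. With no effect at all the pair would take 40% on average and pacing 20%, since they hold 2 and 1 of the 5 degrees of freedom. These are means and not medians, so the medians here cannot be set directly against them. The share of the pair was above that of pacing in 10 of the 10 clock genes, and in 57.5% of all genes. In Clock the shares were close, at 46.2% and 45.1%. Per3 (87.6%), Dbp (72.0%) and Per2 (60.1%) followed Npas2. In Nr1d1, Nr1d2, Cry2 and Per1 the remainder, which neither pair nor pacing takes, was larger than either, between 51.0% and 56.4%, and in Cry1 it was 79.3%. The median of the remainder was 45.0% over the clock genes, close to that of the pair, and 40.4% over all genes. The median share of the pair was 8.44% without pair 1, beside 16.1% over all genes. That of pacing was 26.2% without pair 3, beside 54.6% over all genes. The averages with no effect given above do not hold for these smaller sets of arrays.

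**Figure D3:**
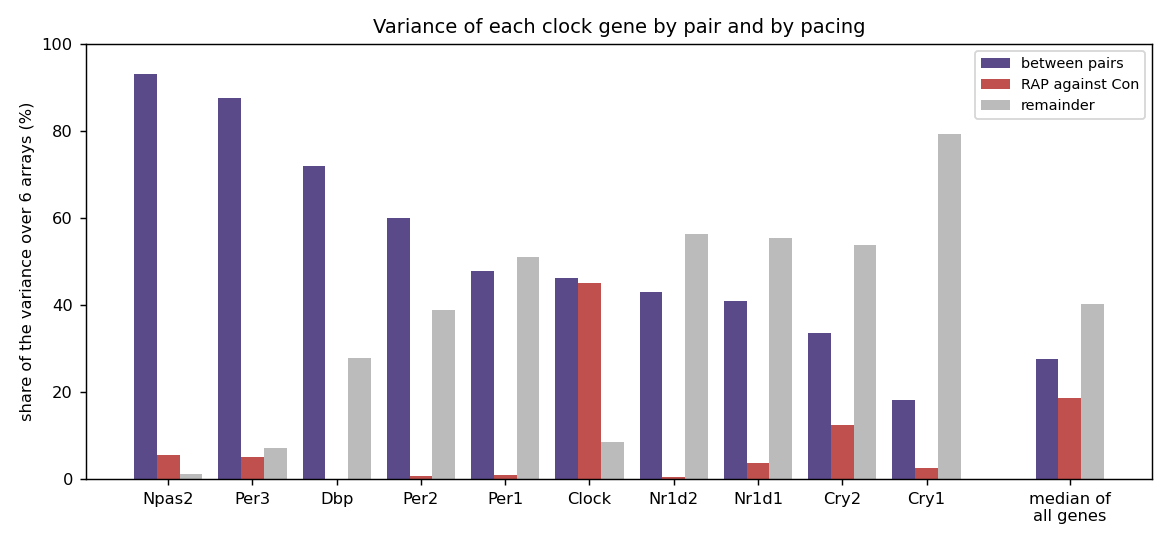
Share of the variance over the 6 arrays, in percent, that lay between the 3 pairs, between RAP and control pacing and in the remainder, for each clock gene in falling order of the pair's share and as the median over all genes. The pair's bar is the tallest of the 3 for Npas2, Per3, Dbp, Per2 and Clock, and the bar of pacing is at most 12.4% in the clock genes other than Clock, where it is 45.1%.

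Over the 10 clock genes together the arrays fell into 3 couples, each of a RAP and a control array, of which 1 was a labelled pair. The mean difference in log2 signal without sign was smallest between control 3 and RAP 2 (0.11), next between control 1 and RAP 1 of pair 1 (0.16) and then between control 2 and RAP 3 (0.23). In the other 12 combinations it lay between 0.33 and 0.61. Between the arrays of pair 2 it was 0.42 and of pair 3 0.37. On average it was 0.32 in the labelled pairs, 0.43 between arrays of one group and 0.37 between arrays that shared neither. Over all genes these means were 0.34, 0.30 and 0.31. Over all genes control 3 and RAP 1 were the closest (0.21), and control 2 and RAP 2 the furthest apart (0.44).

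Correlations of the deviations from each gene's mean, over 10 genes that share their arrays, gave the same couples. Pearson's r was 0.84 between control 1 and RAP 1, 0.79 between control 3 and RAP 2 and 0.67 between control 2 and RAP 3, and it was -0.33 in pair 2 and 0.13 in pair 3. With deviations taken from the group means instead, which removes the effect of pacing, r was 0.91 in pair 1, -0.22 in pair 2 and 0.09 in pair 3, and 0.80 and 0.79 in the couples of control 3 with RAP 2 and of control 2 with RAP 3. Over all genes the same values were 0.22, -0.29 and -0.33 in the pairs and 0.42 and 0.34 in those couples. Gene by gene, RAP 2 was the RAP array nearest to control 3 in 9 of the 10 clock genes (30.7% of all genes), and control 3 the control nearest to RAP 2 in 6 (56.0%). Control 2 was the control nearest to RAP 3 in 7 (31.5%), and RAP 3 the RAP array nearest to control 2 in 6 (42.9%). In pair 1 each array was nearest to its partner in 6 of the 10, beside 26.2% of all genes seen from RAP 1 and 37.6% seen from control 1. Of the 6 readings, that of RAP 2 was closest to its share over all genes, followed by those of control 2 and control 1. Several of the 10 genes ran together, so these counts are not independent readings.

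**Figure D4:**
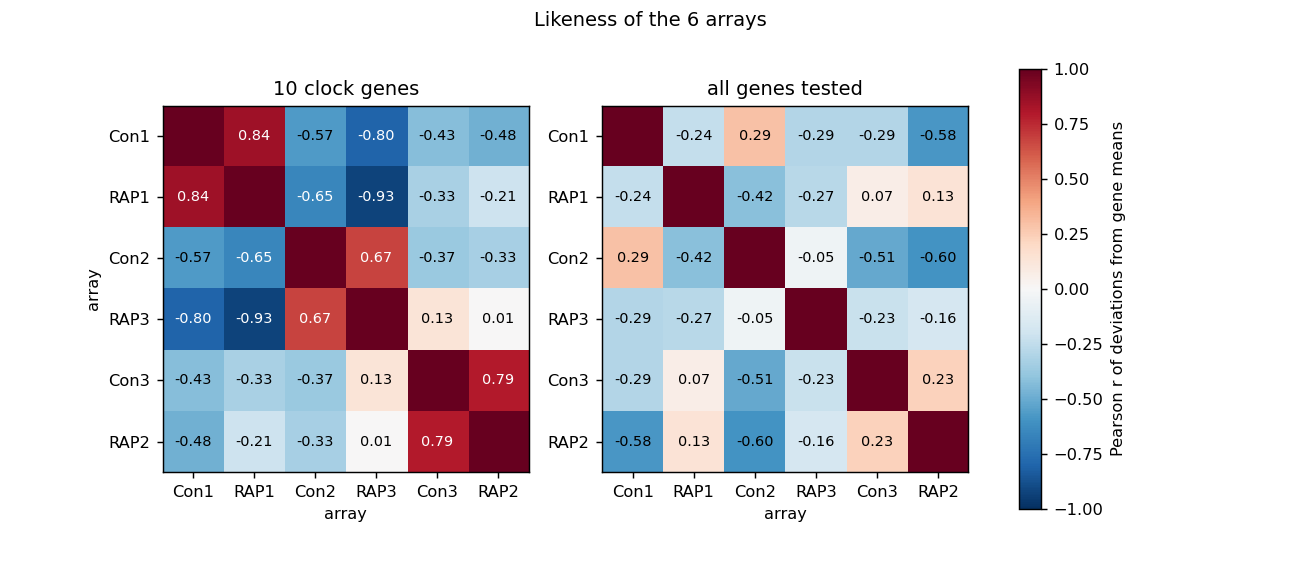
Pearson correlation between each 2 of the 6 arrays of the deviations from the gene means, over the 10 clock genes (left) and over all genes tested (right), with the arrays ordered so that the closest couples of the left panel are neighbours. The couples control 1 with RAP 1 (0.84), control 2 with RAP 3 (0.67) and control 3 with RAP 2 (0.79) are red on the left. On the right the values are -0.24 for control 1 with RAP 1, -0.05 for control 2 with RAP 3 and 0.23 for control 3 with RAP 2.

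Markers of other cells moved with some of these couples. Macrophage markers (8 of 8 measured) had a mean log2 signal of 10.17 in control 2 and 9.34 in RAP 3, and of 8.51 in control 3 and 8.42 in RAP 2, with 9.27 in control 1 and 8.73 in RAP 1. Fibroblast markers (5 of 5) stood at 11.52 and 10.97 in the first couple and 10.38 and 10.18 in the second, and mast cell markers (5 of 5) at 7.04 and 6.59 and at 5.52 and 4.85. These lists therefore split control 2 and RAP 3 from control 3 and RAP 2 in the direction opposite to Nr1d1. In all 3 lists both arrays of pair 1 lay below control 2 and above control 3 and RAP 2. Erythroid (3 of 5) and ventricular (4 of 4) markers did not follow the couples: control 3 stood at 12.03 and 7.60, and the other 5 arrays between 9.38 and 10.08 and between 5.10 and 5.94. Adipocyte markers (6 of 6) were highest in control 3 and RAP 3 (7.55 and 8.18) and lay between 6.20 and 6.78 elsewhere. Of the 6, 4 (Adipoq, Plin1, Cidec and Fabp4) passed the test of the pair before adjustment. Adipoq and Cidec also rose with RAP (1.09, SE 0.21, and 0.58, SE 0.15, limma's adjusted p = 0.76 for each), with overlapping groups. Of the mast cell markers Fcer1a passed the test of the pair. Endothelial markers (4 of 4) ranged from 8.33 to 8.84. Proliferation markers (5 of 6) ranged from 5.15 in RAP 2 to 7.50 in RAP 1. The part of these cells in the clock genes' pattern was not tested.

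Several clock genes ran together from array to array, and Bmal1 ran against them. Over the 6 arrays Nr1d1 and Nr1d2 had a Pearson r of 0.98 and the same ranks, and Dbp had an r of 0.85 with Nr1d1 and 0.91 with Nr1d2. Per1 (0.93 with Nr1d1), Cry2 (0.91) and Per3 (0.75) went the same way. Without the 2 arrays furthest from the median of Per1, of Cry2 or of Per3, these values were 0.26, 0.82 and 0.68, so that the relation of Per1 rested on those arrays. Bmal1, the activator that the REV-ERB receptors silence, had signals of 6.33, 6.78 and 6.52 in controls 1, 2 and 3 and 5.72, 6.47 and 6.85 in RAP 1, 2 and 3, which is the exact reverse of the ranks of Dbp. Its r was -0.91 with Dbp and -0.80 with Nr1d1, and its change with RAP was -0.20 (SE 0.22, limma's adjusted p = 0.85). It was named after its values had been seen. Leaving out the 2 arrays furthest from the median of the first gene, r was 0.96 for Nr1d1 with Nr1d2, 1.00 for Nr1d1 with Dbp and -0.95 for Dbp with Bmal1. Npas2 ran against Per3 (-0.93), but without the arrays of pair 1 r was -0.22. Per2 had an r of 0.08 with Nr1d1 and 0.21 with Dbp, and Cry1 one of -0.60 and -0.13. These are descriptions over the same 6 arrays, not tests.

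**Figure D5:**
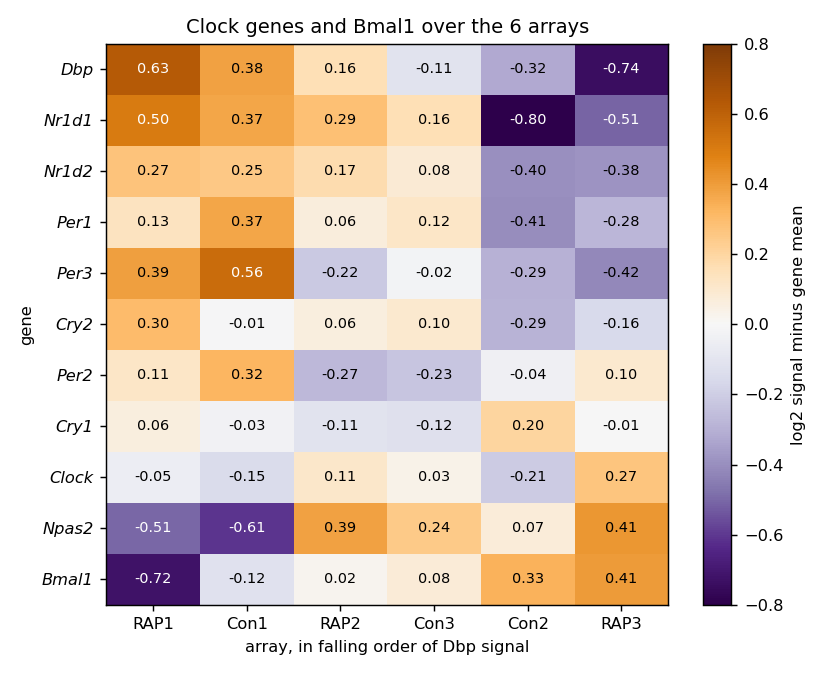
Log2 signal minus the gene's mean over the 6 arrays, for the 10 clock genes and Bmal1, with the arrays in falling order of Dbp. Dbp, Nr1d1, Nr1d2 and Per1 are above their means in RAP 1 and control 1 and below them in control 2 and RAP 3, Bmal1 runs the other way, and Npas2 is low only in the arrays of pair 1.

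The wider clock was read from lists of related genes, of which single members past a threshold are to be set against the 6.39% of all genes past it with RAP and the 2.06% past it by pair. Of the other loop genes 8 of 13 were measured, of which 0 rose, 0 fell and 0 passed the test of the pair, with a median change of -0.04. Of 14 kinases, ubiquitin ligases and cofactors that set the speed of the clock 11 were measured, of which 0 rose, 0 fell and 0 passed the test of the pair (median -0.02). Of 12 known outputs of the clock in the heart 11 were measured, of which 1 rose, Alas1, the first enzyme of heme synthesis. Heme is the ligand of the REV-ERB receptors. Alas1 had signals of 8.84, 8.96 and 9.47 in controls 1, 2 and 3 and of 9.59, 9.88 and 10.02 in RAP 1, 2 and 3, so that the groups did not overlap, as in 15.4% of all genes. Its change was 0.74 (SE 0.14, limma's adjusted p = 0.76). The median of the outputs was 0.33, beside -0.0074 over all genes, with a higher mean with RAP in 9 and a lower one in 2. The share of all genes with a higher mean was not counted, and no test was made over the list. Dgat2, an enzyme of triglyceride synthesis, passed the test of the pair, with 7.01 in control 3 and 8.32 in RAP 3 against 6.18 to 6.77 elsewhere.

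Genes that answer signals able to reset the clock were read in the same way. Of 8 glucocorticoid-responsive genes 2 rose, Zbtb16 (1.20, SE 0.35) and Tsc22d3 (0.48, SE 0.14), and 0 fell, with a median of -0.0040, and Sgk1 passed the test of the pair. Of 7 immediate-early genes 6 were measured, of which 0 rose and 2 fell, Atf3 (-0.84, SE 0.27) and Egr1 (-0.70, SE 0.26). For Zbtb16, Tsc22d3, Atf3 and Egr1 alike limma's adjusted p = 0.76. All 6 immediate-early genes had a lower mean with RAP, with a median of -0.50, beside -0.0074 over all genes. The share of all genes with a lower mean was not counted, and the list was not tested. Fos passed the test of the pair, at 6.81 and 6.35 in control 1 and RAP 1 and between 7.34 and 7.48 on the other 4 arrays, so that it split pair 1 from the rest as Npas2 did. Of 6 temperature-responsive genes 5 were measured, of which 0 rose, 0 fell and 0 passed the test of the pair (median -0.05).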

How the data were processed

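RNA of 6 rat left atria was hybridised to whole-transcript rat gene arrays, each rat to its own. The deposited values are log2 signals of 29214 probe sets, which the authors computed by robust multiarray averaging (RMA) in Partek Genomics Suite at default parameters, with a version not given in the sources used here. Array medians lay between 5.82 and 5.85, and 62.6% to 63.8% of the probe sets were above 5. The number of arrays limits the precision. Of the probe sets 15310 had 1 gene symbol, 323 several and 13581 none in the array annotation, and 15279 matched the current rat gene list. The 19907 probe sets that exceeded a log2 signal of 5 on any array were fitted with limma 3.58.1 in R 4.3.3, with pair and group as terms and 2 residual and 2.76 prior degrees of freedom. A call needed an unadjusted p under 0.05 and a fold above 1.3, after the thresholds in the study's methods, and p-values were adjusted by Benjamini-Hochberg over all 19907. A gene was read from its probe set of highest mean, which gave 11237 genes. The code was tested on simulated data.

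The pairing comes from the labels, which number the pairs, and from the methods. By these correlations the arrays of pairs 2 and 3 were not most alike within their labelled pairs, while adipocyte markers were highest in both arrays of pair 3. The reason was not tested. The study reports likeness within each pair by principal component analysis. The labels were followed. Over all genes, deviations from the group means correlated within pairs 1, 2 and 3 at 0.22, -0.29 and -0.33. Named were the 10 clock genes, genes of the fixed lists that passed a threshold, and the 5 genes most and least correlated with Dbp. Bmal1 and Myl2 were named after their values had been seen. The clock genes, lists and tests were chosen with earlier results of these data known. Promoter windows came from RefSeq on build GRCr8 and were matched by symbol. Alternatives were another test, array weights, filters, normalizations, probe set rules, no replicate block and leaving out each array (without the block) or pair.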

Additional observations from a re-analysis of the deposited data

How the results depend on the processing

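Of the 10 clock genes 0 passed the thresholds with RAP under each of the 19 alternatives, also in the fit with no replicate block, where 870 genes passed in place of 718. Among 190 alternative values of the 10 differences 29 changed sign and 1 had an unadjusted p under 0.05 (Cry2 with array weights, 0.28). The fits without 1 array did not use the pairs, so that differences between pairs could enter their values. Further quantile normalization gave 0.0036 for Per2, and array weights gave 0.049 for Cry1. Leaving out 1 array or pair gave -0.059 to 0.50 for Npas2, -0.32 to 0.12 for Per1, -0.22 to 0.11 for Per2, -0.40 to 0.076 for Per3, -0.11 to 0.10 for Cry1, -0.27 to 0.61 for Nr1d1, -0.22 to 0.29 for Nr1d2 and -0.28 to 0.41 for Dbp, while Clock and Cry2 kept their sign. Over all genes the methods' t-test called 234 with RAP and its F test 150 by pair, with 1 clock gene (Npas2). Array weights, which gave the arrays of pair 1 a weight of 4.91 against 0.62 and 0.33, called 2650 and 417, with 3 clock genes by pair, and 2738 probe sets then had an adjusted p under 0.05 with RAP in place of 0. Leaving out 1 array or pair, 164 to 2488 genes passed with RAP and 103 to 516 by pair, with 0 to 3 clock genes by pair. The highest count with RAP came without pair 3 and the lowest without pair 1, and without control 3 it was 1731. Leaving out 1 pair, the median share of the pair over the clock genes was 8.44% to 61.2%, that of pacing 3.95% to 26.2% and that of the remainder 11.4% to 79.4%. Over all genes these were 15.7% to 22.7%, 24.4% to 54.6% and 13.7% to 40.7%. The cause was not tested.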

Other observations

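Genes that ran with Dbp over the 6 arrays were ranked by Pearson's r among 3270 genes with an SD of at least 0.3, as a description with no test. The most alike were Cd99l2 (0.97), Nap1l5 (0.93), Ncdn (0.93), Slc6a6, the taurine transporter (0.92), and Extl1 (0.92). The most opposite were Tubb2a, a beta tubulin (-0.99), Fam3b (-0.99), Blvrb, biliverdin reductase B (-0.98), Sdf2l1 (-0.98) and Gpr171 (-0.97). Of the clock genes Nr1d2 stood in place 7 from the top, Nr1d1 in place 23 and Per3 in place 24, and Npas2 in place 181 from the bottom (-0.76), while the other 5 had a smaller SD and were not ranked.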
